A study of Rattus norvegicus with 12 samples.

Results

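Voltage-gated calcium channels carry calcium into excitable cells, and the transcripts of 9 of their subunits were followed in the neonatal rat ventricle, 9 of the 32545 genes in the deposited table. The rule takes the genes by name. They are the pore-forming subunits Cacna1c, Cacna1d, Cacna1g and Cacna1h, the cytoplasmic beta subunits Cacnb1, Cacnb2 and Cacnb3, and the alpha2delta subunits Cacna2d1 and Cacna2d2. On postnatal day 1 a fistula was made between the abdominal aorta and the inferior vena cava of rats of the Sprague–Dawley strain, which loads both ventricles with extra volume (VO), and controls were sham-operated. The free walls of the left (LV) and right ventricle (RV) were taken on postnatal day 7. That gives 4 groups of 3 libraries, the sham LV and RV and the VO LV and RV. The labels do not say that the 3 libraries of a group came from separate animals, so the p-values measure the spread between these libraries, which may be technical.

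The pore subunit decides the type of channel. Cacna1c encodes Cav1.2, the L-type channel whose calcium current triggers calcium release from the sarcoplasmic reticulum in ventricular cardiomyocytes, and Cacna1d encodes Cav1.3, the L-type channel of pacemaker and atrial cells. Cacna1g and Cacna1h encode the T-type channels Cav3.1 and Cav3.2, which open at lower voltage and are known from the fetal heart and the conduction system. Beta subunits bind the L-type pore from the cytoplasmic side, bring it to the membrane and tune its gating, and alpha2delta subunits are extracellular proteins that raise the number of channels at the surface.

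Promoter windows were printed for the 3 auxiliary subunits with their lowest group mean in the sham LV that differed most between groups, Cacnb2, Cacna2d1 and Cacna2d2, and for the L-type pore Cacna1c, which was called in none of the 5 comparisons. The RefSeq table (GRCr8) gave windows of 250 bases before to 50 bases after the start for 6 of the 9 genes, 9 windows in all. It held none for Cacna1g, Cacna1h and Cacnb1. Capitals mark matches on either strand to the GC box (GGGCGG or its complement), the GATA motif (AGATAA) and the M-CAT motif (CATTCC), and neighbouring GC box matches can overlap.
Cacnb2, first start, chr17:82472965-82473264 (plus strand, GRCr8): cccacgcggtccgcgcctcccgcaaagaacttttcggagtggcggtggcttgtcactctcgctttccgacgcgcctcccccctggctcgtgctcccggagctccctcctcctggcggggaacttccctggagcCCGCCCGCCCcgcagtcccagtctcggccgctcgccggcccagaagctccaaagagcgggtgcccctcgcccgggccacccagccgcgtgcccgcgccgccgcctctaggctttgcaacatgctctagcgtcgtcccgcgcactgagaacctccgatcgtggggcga
Cacnb2, second start, chr17:82596542-82596841 (plus strand, GRCr8): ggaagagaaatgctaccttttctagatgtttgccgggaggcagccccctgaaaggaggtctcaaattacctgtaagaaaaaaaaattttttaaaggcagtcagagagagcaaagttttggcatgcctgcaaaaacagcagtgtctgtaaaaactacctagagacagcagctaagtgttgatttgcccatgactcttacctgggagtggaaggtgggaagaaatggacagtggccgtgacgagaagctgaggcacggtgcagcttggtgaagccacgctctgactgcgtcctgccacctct
Cacna2d1, most upstream window, chr4:20330098-20330397 (minus strand, GRCr8): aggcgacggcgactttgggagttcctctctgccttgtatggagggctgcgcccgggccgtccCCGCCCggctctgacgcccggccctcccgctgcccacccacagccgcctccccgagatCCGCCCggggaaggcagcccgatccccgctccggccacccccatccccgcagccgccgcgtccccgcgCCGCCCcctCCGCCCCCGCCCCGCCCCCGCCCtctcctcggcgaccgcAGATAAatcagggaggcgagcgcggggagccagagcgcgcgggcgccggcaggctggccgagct
Cacna2d2, chr8:116950856-116951155 (plus strand, GRCr8): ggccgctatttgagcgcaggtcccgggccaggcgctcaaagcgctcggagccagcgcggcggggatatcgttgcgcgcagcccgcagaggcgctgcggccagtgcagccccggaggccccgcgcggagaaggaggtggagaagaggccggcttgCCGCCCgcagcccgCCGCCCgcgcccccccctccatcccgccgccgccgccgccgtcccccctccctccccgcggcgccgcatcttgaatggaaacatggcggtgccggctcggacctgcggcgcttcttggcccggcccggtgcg
Cacna1c, chr4:154051699-154051998 (minus strand, GRCr8): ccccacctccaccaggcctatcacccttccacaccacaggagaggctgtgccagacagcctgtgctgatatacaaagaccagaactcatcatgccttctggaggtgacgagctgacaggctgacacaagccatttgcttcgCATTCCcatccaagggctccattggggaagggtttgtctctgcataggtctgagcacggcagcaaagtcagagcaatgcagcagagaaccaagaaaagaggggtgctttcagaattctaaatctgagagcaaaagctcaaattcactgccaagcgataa
GC content was 71.7% and 48.7% in the Cacnb2 windows, 78.3% in the Cacna2d1 window, 77.0% in the Cacna2d2 window and 51.7% in the Cacna1c window, against a median of 51.7% over all 33469 promoters. The GC box was found in 5 of the 6 genes, that is in all but Cacna1c, and in 33.1% of all promoters. The first Cacnb2 window held 2 matches, the second none, the Cacna2d1 window 7 and the Cacna2d2 window 2. The GATA motif was found in 1 gene, Cacna2d1 (11.6% of all promoters), and the M-CAT motif in 1 gene, Cacna1c (14.2%). The TATA box (TATAAA, 14.2%), the cAMP response element (TGACGTCA, 1.83%) and the E-box (CACGTG, 6.42%) were found in 0 of the 6. A match is a description of letters and not a binding site.

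Levels are given as FPKM, read fragments scaled by transcript length and library size, which are per length and can be compared between genes. The reads on genes ranged from 14121713 to 16871371 per library. All libraries held cardiomyocyte transcripts. The summed FPKM of 7 markers (Myh6, Tnnt2, Tnni3, Actn2, Ryr2, Myl2 and Myl3) was 18523 to 19170 in the sham LV and 14651 to 17073 in the sham RV. It was 17293 to 18437 in the VO LV and 11947 to 18073 in the VO RV. The sum does not tell ventricular from atrial muscle. Myl2 was at 375 FPKM in sham LV replicate 2, against 1129 and 1093 in sham LV replicates 1 and 3. A pair of RV libraries stood apart by atrial transcripts. Sln, an atrial regulator of the calcium pump, was at 97.7 FPKM in sham RV replicate 1 and at 388 FPKM in VO RV replicate 2, and at most 0.678 FPKM in the other 10 libraries. The sum of 4 atrial markers (Myl7, Sln, Bmp10 and Myl4) was 187 to 301 FPKM in the sham LV, 148 to 440 in the sham RV, 269 to 306 in the VO LV and 177 to 1522 in the VO RV. Fibroblast markers reached 1677 FPKM in VO RV replicate 2, against 942 to 1199 in the sham RV, 904 to 927 in the sham LV and 696 to 848 in the VO LV. For only 4 of the 12 libraries was the most similar library one of the same group. In bulk tissue, fewer cells of a type and less RNA per cell cannot be told apart.

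Pore transcripts came mostly from 3 genes at similar levels, with no difference between groups past the test. Over the 12 libraries the mean was 23.8 FPKM for Cacna1g, 20.3 FPKM for Cacna1c and 19.3 FPKM for Cacna1h, whose ranges overlapped, and 0.325 FPKM for Cacna1d. The T-type genes therefore made up 67.5% ± 2.61 (SD, n = 3) of pore FPKM in the sham LV, 66.8% ± 2.30 in the sham RV, 65.8% ± 2.71 in the VO LV and 70.3% ± 3.30 in the VO RV. None of the 3 tested pores was called in any of the 5 comparisons.

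Cacna1c stood at 21.3, 20.5 and 18.1 FPKM in the sham LV and at 23.3, 20.6 and 22.1 FPKM in the sham RV. In VO LV it was at 20.7, 23.6 and 20.2 FPKM and in the VO RV at 20.5, 13.4 and 19.1 FPKM. The VO RV libraries were all below the sham RV libraries, with the lowest of the 12 values in VO RV replicate 2. The log2 fold change of VO RV against sham RV was −0.33 (SE 0.14, limma adjusted p = 0.579), and the exact two-sided permutation test gave p = 0.10, the smallest that 3 libraries against 3 allow. The other 3 comparisons between groups gave log2 fold changes between −0.14 and 0.30. For sham LV against sham RV the 95% interval of the Cacna1c log2 difference ran from −0.45 to 0.17.

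Cacna1g was at 24.1, 23.1 and 17.8 FPKM in the sham LV, 31.7, 22.1 and 22.1 in the sham RV, 23.0, 23.4 and 23.8 in the VO LV and 23.4, 26.9 and 24.0 in the VO RV. Its highest value was in sham RV replicate 1. Cacna1h was at 22.9, 24.1 and 15.7 FPKM in the sham LV, 21.9, 19.3 and 18.9 in the sham RV, 18.5, 16.7 and 19.6 in the VO LV and 19.4, 12.9 and 21.3 in the VO RV. For both T-type genes the groups overlapped in each of the 4 comparisons between groups, and log2 fold changes between groups lay between −0.21 and 0.12. Cacna1d, with 29 to 134 reads per library, stayed under the minimum mean of 0.5 FPKM and was not tested. It was at 0.245, 0.245 and 0.250 FPKM in the sham LV, 0.401, 0.388 and 0.199 in the sham RV, 0.233, 0.246 and 0.179 in the VO LV and 0.349, 0.762 and 0.397 in the VO RV. The summed FPKM of 5 conduction system markers (Hcn4, Tbx3, Shox2, Isl1 and Cntn2) was 5.18 to 6.59 in the sham LV and 5.65 to 6.30 in the VO LV, below the 7.14 to 7.84 of the sham RV and the 6.86 to 7.14 of the VO RV. The markers did not move together. Hcn4 was at 0.566 to 0.827 FPKM in the sham LV and 3.01 to 4.06 in the sham RV, whereas Tbx3 was higher in the sham LV (3.64 to 4.75 FPKM) than in the sham RV (2.65 to 3.33). Isl1 was at most 0.0754 FPKM. Their part in the Cacna1d levels was not tested.

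**Figure D1:**
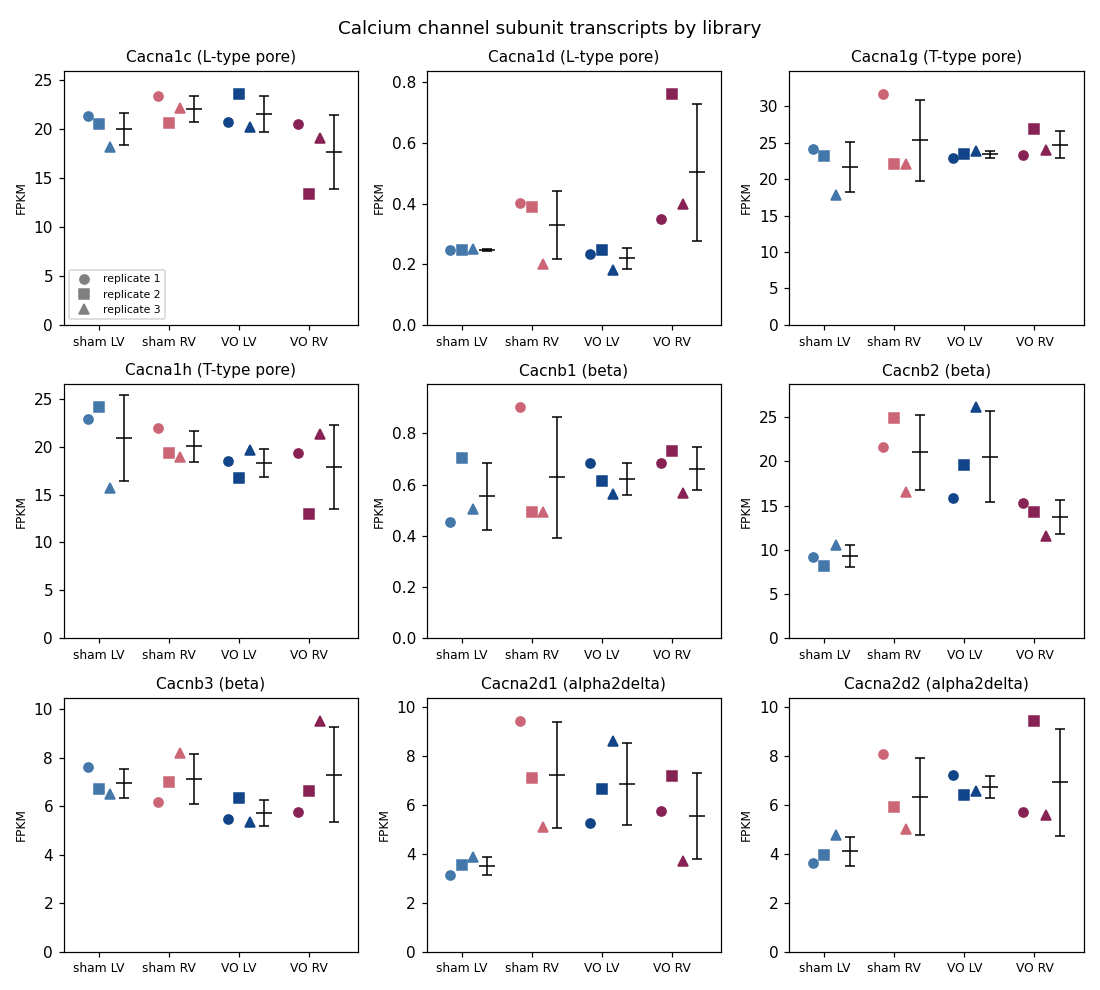
FPKM of the 9 subunits in each library (vertical axes, each from 0), by group along the horizontal axis; symbols mark replicate numbers and the bar beside each group is the mean ± SD of 3 libraries. The sham LV libraries were the lowest of the 4 groups for Cacnb2, at 8.14 to 10.6 FPKM, while the points of Cacna1g overlapped between groups.

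The comparison of sham LV with sham RV asks how the unloaded ventricles differ. Cacnb2 was lower in the LV, and Cacna2d1 and Cacna2d2 lay lower in all 3 sham LV libraries than in any sham RV library. Of the 8 members tested, 1 was called (Cacnb2, adjusted p under 0.05 and fold change over 1.3), against 3.86% of all tested genes. The LV and RV libraries did not overlap for 3 of 8, all lower in the LV, against 16.6% of all tested genes lower and 32.2% in either direction. The median log2 difference of the 8 was −0.18, beside 0.01 over all tested genes. Markers of other cells also moved between the sham ventricles. The sum of 3 endothelial markers (Cdh5, Kdr and Tie1) was 272 to 292 FPKM in the sham LV and 199 to 218 in the sham RV, and Kdr (0.42, limma adjusted p = 0.0432) and Tie1 (0.54, adjusted p = 0.0332) were called higher in the LV. The cardiomyocyte sums did not overlap either, but Myh6 was lower in the sham LV (1544 to 1706 FPKM against 2165 to 2355) and Tnni3 higher (3384 to 3740 against 2177 to 2581). Their part in the differences of the subunits was not tested.

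Cacnb2, the main cardiac beta subunit, was at 9.16, 8.14 and 10.6 FPKM in the sham LV. It was at 21.6, 24.9 and 16.5 FPKM in the sham RV. Every RV library was above every LV library, and the means were 9.29 ± 1.22 and 21.0 ± 4.22 FPKM (SD, n = 3). The log2 difference of sham LV minus sham RV was −1.12 (SE 0.19, 95% interval −1.55 to −0.70, limma adjusted p = 0.0319). The direction held in all 12 fits that left out 1 library, with values from −1.28 to −0.99. The call was lost without sham LV replicate 1 (adjusted p = 0.0705) or 2 (0.111), sham RV replicate 1 (0.121) or 2 (0.103) or VO LV replicate 2 (0.0507), and without both libraries with atrial transcripts (−1.09, adjusted p = 0.110). It was also lost with all genes above 0 tested (adjusted p = 0.0616), with the replicate number as a block (0.0741) and with that block within treatment (0.147).

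Cacna2d1, the alpha2delta subunit of the cardiac L-type channel, was at 3.14, 3.53 and 3.89 FPKM in the sham LV and at 9.44, 7.12 and 5.11 FPKM in the sham RV. Cacna2d2, its relative, was at 3.61, 3.97 and 4.77 FPKM in the sham LV and at 8.10, 5.90 and 5.03 FPKM in the sham RV. For both genes the highest sham RV value came from replicate 1, the library with atrial transcripts. The log2 differences were −0.91 (SE 0.25, limma adjusted p = 0.0642) and −0.55 (SE 0.20, adjusted p = 0.125), so neither passed the test, though Cacna2d1 did without VO RV replicate 3 (adjusted p = 0.0381). The other beta subunits did not follow Cacnb2. Cacnb3 had means of 6.95 ± 0.595 and 7.13 ± 1.03 FPKM (SD, n = 3) in the sham LV and sham RV, and Cacnb1 0.554 ± 0.130 and 0.629 ± 0.236 FPKM, with 24 to 51 reads per library.

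The comparison of VO LV with sham LV asks how the LV responded to the fistula. The same 3 auxiliary subunits lay higher in every VO LV library than in any sham LV library, and Cacnb3 lay lower. None of the 8 tested members was called, against 0.0935% of all tested genes. At an unadjusted limma p under 0.05 with the same fold change, 3 of 8 were higher, against 9.27% of all tested genes. The groups did not overlap for 3 of 8 that were higher and 1 that was lower, against 16.7% and 15.7% of all tested genes. The comparison shares the sham LV libraries with the one above, and their low values enter both. Summed markers of other cells separated these groups too, though most single markers overlapped. The endothelial sum was 230 to 260 FPKM in the VO LV and the fibroblast sum 696 to 848. Both were below the sham LV (272 to 292 and 904 to 927), as was the macrophage sum (25.2 to 27.5 against 28.2 to 31.4). Of the single markers, Tie1, Col1a1 and Tcf21 did not overlap. Cdh5, Kdr, Pdgfra, Dcn and the macrophage markers Cd68, Csf1r, Adgre1 and C1qa overlapped. The cardiomyocyte sum was also lower, while of its members Myh6 was at 2041 to 2787 FPKM against 1544 to 1706 and Actn2 at 582 to 686 against 363 to 509. Their part in the subunit levels was not tested.

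Cacnb2 was at 15.9, 19.6 and 26.1 FPKM in the VO LV, a mean of 20.5 ± 5.16 (SD, n = 3). Its log2 fold change against sham LV was 1.08 (SE 0.19, 95% interval 0.66 to 1.51), and with a limma adjusted p of 0.0514 it missed the threshold. The value lay close to the threshold. Cacnb2 was called in 3 of the 12 fits that left out 1 library and in 4 of the 14 other settings. Among these were voom on recovered reads (adjusted p = 0.0323) and the fits without sham LV replicate 3 (0.0438), VO RV replicate 1 (0.0425) or VO RV replicate 3 (0.0204). The adjusted p rose to 0.126 without sham LV replicate 1, 0.179 without sham LV replicate 2 and 0.249 without VO LV replicate 3. With the replicate number as a block it was 0.107. Cacna2d1 was at 5.28, 6.65 and 8.60 FPKM in the VO LV, a log2 fold change of 0.85 (SE 0.25, adjusted p = 0.0923). Cacna2d2 was at 7.23, 6.40 and 6.55 FPKM, a log2 fold change of 0.66 (SE 0.20, adjusted p = 0.102). Cacnb3 was at 7.63, 6.70 and 6.53 FPKM in the sham LV and at 5.47, 6.33 and 5.34 FPKM in the VO LV, with a log2 fold change of −0.26 (SE 0.17, adjusted p = 0.360).

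The comparison of VO RV with sham RV gave no called member, and 0% of all tested genes were called. At an unadjusted limma p under 0.05 with the same fold change, 683 genes passed, 4.91% of those tested, and 1 of the 8 members was among them. That member was Cacnb2, at 15.3, 14.3 and 11.6 FPKM in the VO RV, below all 3 sham RV libraries, with a log2 fold change of −0.58 (SE 0.19, adjusted p = 0.542). Non-overlapping groups were seen for 2 of the 8 members, Cacnb2 and Cacna1c, both lower, against 6.87% of all tested genes lower. Cacna2d1 was at 5.76, 7.19 and 3.71 FPKM and Cacna2d2 at 5.72, 9.43 and 5.60 FPKM in the VO RV, and both overlapped sham RV. The smooth muscle sum of 5 markers was 199.8 to 248 FPKM in the sham RV and 261 to 382 in the VO RV. These sums did not overlap, and Smtn entered them with 2 entries. Of the single markers only Acta2 did not overlap (86.8 to 115 FPKM against 123 to 196), while Myh11, Cnn1, Tagln and Smtn did. The sum of 4 neuron markers (Tubb3, Elavl3, Snap25 and Prph) also did not overlap, at 4.37 to 5.89 FPKM and 6.52 to 7.29. The macrophage sum overlapped, at 22.3 to 29.1 and 24.9 to 43.1. Their part in the Cacnb2 and Cacna1c levels was not tested.

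**Figure D2:**
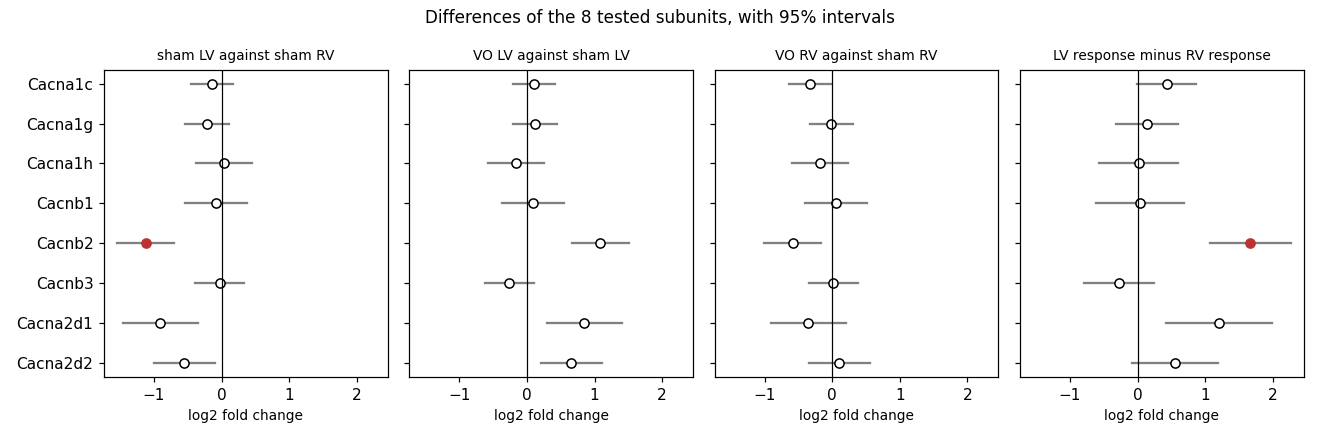
Log2 fold changes of the 8 tested subunits from limma (points) with 95% intervals (lines) in 4 comparisons; filled red points were called. Cacnb2 was at −1.12 between the sham ventricles and at 1.67 for the LV response minus the RV response, the only filled points.

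Under VO no tested member differed between the ventricles past the test, and Cacnb2 came nearest. VO LV against VO RV gave a log2 difference of 0.54 (SE 0.19, limma adjusted p = 0.344), and the VO LV libraries all lay above the VO RV libraries. That was 1 of the 8 tested members, against 16.1% of all tested genes in either direction. None of the 8 was called, against 0.00719% of all tested genes. The untested Cacna1d was lower in all 3 VO LV libraries than in any VO RV library (exact two-sided permutation p = 0.10). The conduction sum (5.65 to 6.30 FPKM against 6.86 to 7.14) and the neuron sum (4.99 to 6.36 against 6.52 to 7.29) did not overlap either. Of their single markers only Hcn4 did not overlap (0.513 to 1.76 FPKM against 2.22 to 3.81). Their part in the Cacnb2 and Cacna1d levels was not tested.

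Whether the LV and the RV responded differently was tested as an interaction. Cacnb2 was the member called, 1 of 8, against 4.19% of all tested genes, and its response was higher in the LV by 1.67 on the log2 scale (SE 0.27, 95% interval 1.07 to 2.26, limma adjusted p = 0.0249). The low sham LV and high sham RV values enter this difference together with the VO libraries. The value stayed between 1.48 and 1.83 when single libraries were left out. The call was lost without sham LV replicate 1 (adjusted p = 0.0613) or 2 (0.0596), sham RV replicate 1 (0.0720) or 2 (0.0649) or VO LV replicate 2 (0.0557) or 3 (0.0819), and without both libraries with atrial transcripts (1.67, adjusted p = 0.0644). It was also lost with all genes above 0 tested (adjusted p = 0.0540), with the replicate number as a block (0.0637) and with that block within treatment (0.146). Cacna2d1 had a difference of 1.21 (SE 0.36, adjusted p = 0.0744), Cacna2d2 0.55 (SE 0.29, adjusted p = 0.256) and Cacna1c 0.43 (SE 0.20, adjusted p = 0.199). Cacna2d1 was called without sham RV replicate 3 (1.42, adjusted p = 0.0498) or VO RV replicate 2 (1.40, adjusted p = 0.0452). With the mean of the atrial markers as a covariate, 3 members were called, Cacnb2, Cacna2d1 and Cacna2d2. In that fit 1213 of all tested genes were called, against 583 in the fit reported above.

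Long and short genes also moved apart between libraries. The median log2 deviation of genes of at least 4000 bases minus that of genes under 1000 bases was −0.23 to −0.13 in the sham LV, −0.03 to 0.24 in the sham RV, −0.02 to 0.12 in the VO LV and −0.16 to 0.16 in the VO RV. Cacnb2 was counted over 2280 bases, Cacna2d1 over 4066, Cacna2d2 over 4741 and Cacna1c over 8000. With each library's length trend removed, Cacnb2 kept its calls, with a sham difference of −1.10 (limma adjusted p = 0.0361) and a difference between responses of 1.64 (adjusted p = 0.0309). Cacna2d1 and Cacna2d2, both in the longer class, were not called between the sham ventricles with it removed. Over all tested genes 469 in place of 537 were called between the sham ventricles, and 393 in place of 583 for the difference between responses. Values of the listed genes below are given without this removal.

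**Figure D3:**
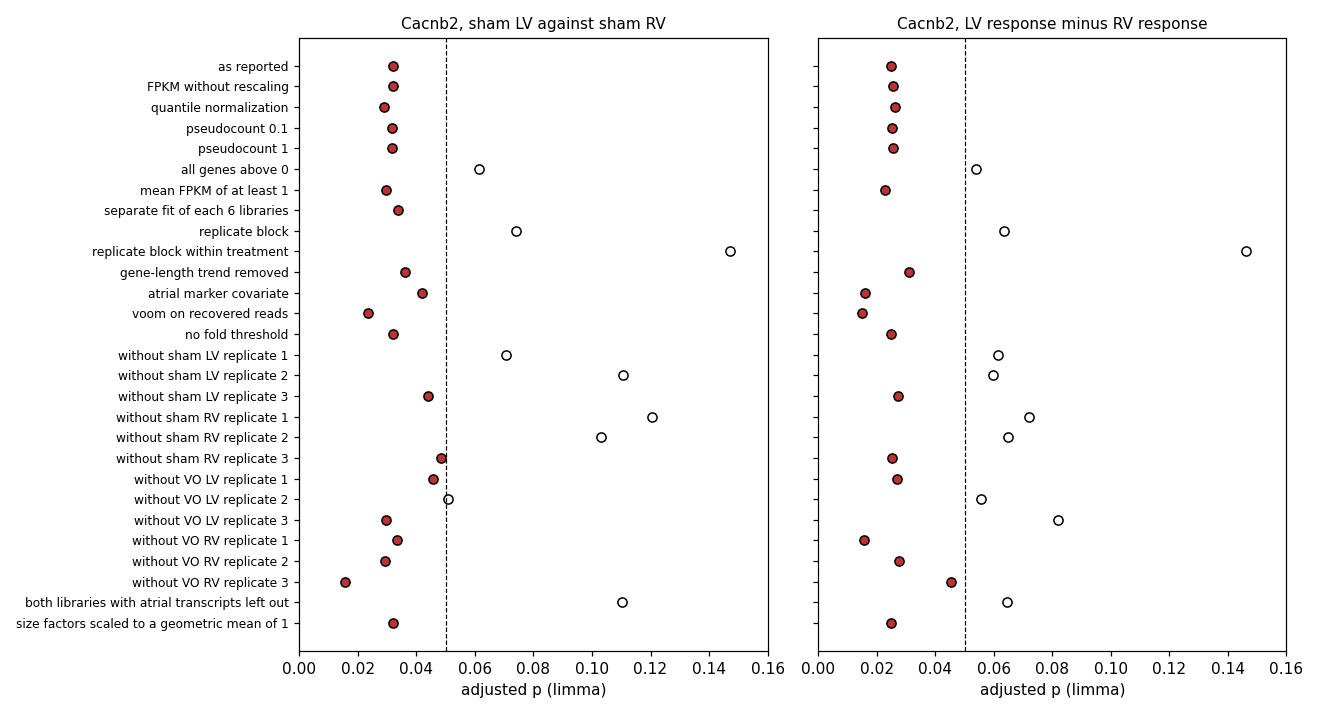
Limma adjusted p of Cacnb2 (horizontal axis) under each setting (vertical axis) for the sham comparison and for the difference between responses; filled points are under the dashed line at 0.05. The reported values were 0.0319 and 0.0249, and the replicate block within treatment gave the highest, 0.147 and 0.146.

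Relative to the pore Cacna1c, Cacnb2 and the summed alpha2delta subunits had their lowest mean ratios in the sham LV. The ratio of Cacnb2 to Cacna1c FPKM was 0.470 ± 0.0991 (SD, n = 3) in the sham LV, 0.960 ± 0.231 in the sham RV, 0.963 ± 0.285 in the VO LV and 0.808 ± 0.236 in the VO RV. The sham LV libraries, at most 0.583, were below all others. Cacnb2 made up 55.2% ± 4.24 of beta subunit FPKM in the sham LV, 72.5% ± 6.19 in the sham RV, 75.8% ± 5.03 in the VO LV and 63.3% ± 8.75 in the VO RV, with Cacnb3 as most of the remainder. Summed alpha2delta FPKM per Cacna1c was 0.386 ± 0.0823 in the sham LV, 0.614 ± 0.147 in the sham RV, 0.636 ± 0.101 in the VO LV and 0.764 ± 0.417 in the VO RV. Within the alpha2delta pair the share of Cacna2d1 was 46.2% ± 1.12, 53.0% ± 2.25, 50.0% ± 7.33 and 44.4% ± 5.25 in the same order. These ratios were not tested.

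**Figure D4:**
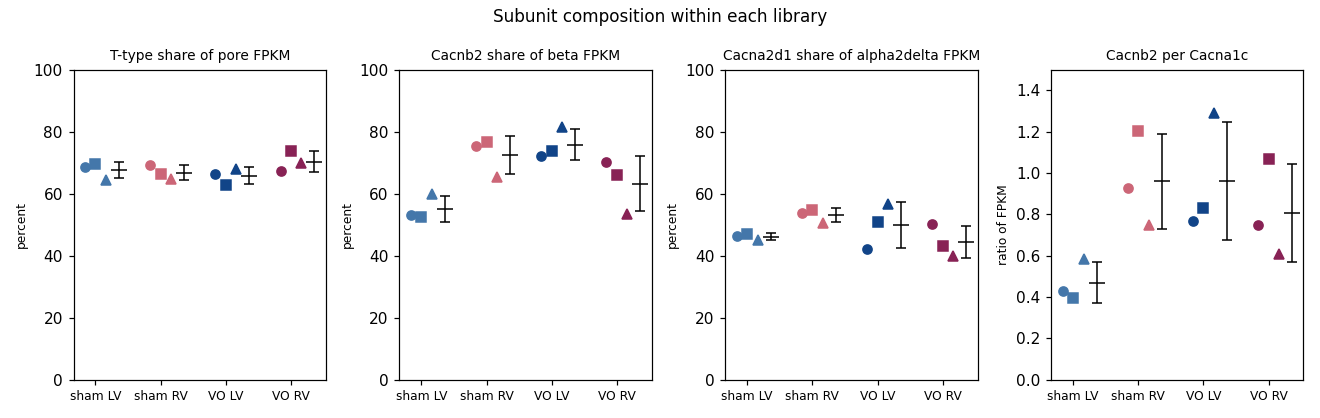
Shares and ratios of subunit FPKM in each library (points; symbols mark replicate numbers) by group, with the mean ± SD of 3 libraries beside them. The T-type share of pore FPKM stayed between 62.8% and 73.8%, while Cacnb2 per Cacna1c was at most 0.583 in the sham LV.

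The members differed in how they stood in the RV libraries with atrial transcripts. In VO RV replicate 2, Cacna1d was at 0.762 FPKM against a mean of 0.373 in the other VO RV libraries, and Cacna2d2 at 9.43 against 5.66, both the highest of the 12. In the same library Cacna1c was at 13.4 FPKM against 19.8 and Cacna1h at 12.9 against 20.4, both the lowest of the 12. In sham RV replicate 1, Cacna1g at 31.7 FPKM, Cacnb1 at 0.901 and Cacna2d1 at 9.44 were the highest of the 12, against means of 22.1, 0.492 and 6.12 in the other sham RV libraries. Cacnb2 moved little, by a ratio of 1.05 in sham RV replicate 1 and 1.06 in VO RV replicate 2 to the other libraries of the group. The part of the atrial transcripts in these levels was not tested.

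**Figure D5:**
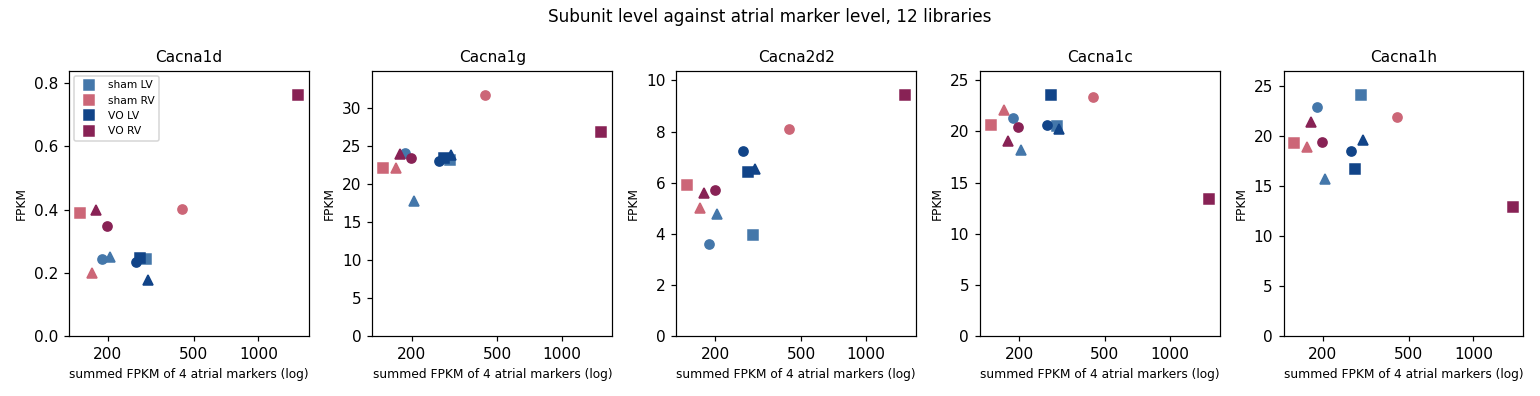
FPKM of 5 subunits (vertical axes, from 0) against the summed FPKM of 4 atrial markers (horizontal axis, log scale) in 12 libraries, coloured by group, with symbols for replicate numbers. The library at 1522 FPKM, VO RV replicate 2, had the highest Cacna1d (0.762 FPKM) and the lowest Cacna1c (13.4 FPKM).

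The remaining subunit genes were mostly near 0. Of 17 listed (Cacna1a, Cacna1b, Cacna1e, Cacna1f, Cacna1i, Cacna1s, Cacnb4, Cacna2d3, Cacna2d4 and Cacng1 to Cacng8), 2 passed the filter on low values and 0 were called in any of the 5 comparisons. Cacna1a, the P/Q-type pore of neurons, had a mean of 2.46 FPKM and ran from 1.38 to 4.03. Cacng6, a gamma subunit of striated muscle, had a mean of 6.39 FPKM and was at 4.93 ± 0.566 (SD, n = 3) in the sham LV and 6.60 ± 0.146 in the sham RV. The other means were at most 0.356 FPKM, for Cacng4, and the skeletal muscle subunits Cacna1s and Cacng1 were at 0.0321 FPKM and listed at 0 in all 12 libraries.

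Regulators of the channel and proteins of the junction it sits in were read from 2 further lists. Both lists were chosen with earlier results of these data known. Their counts beside the shares of all tested genes are therefore a description and not independent evidence. Of 26 tested regulators, 0 were higher and 3 lower in the sham LV than in the sham RV, against 2.35% of all tested genes lower, and the interaction called 5 that were higher in the LV response, against 3.46% of all tested genes higher. Adrb1, the beta1-adrenergic receptor, Adcy5, the adenylyl cyclase it drives, and Prkar2a, a regulatory subunit of protein kinase A, were the 3 lower in the sham LV, with log2 differences of −0.74, −0.90 and −1.09 (limma adjusted p = 0.0361, 0.0325 and 0.0361). The same 3 genes were called in the interaction with 1.26, 1.33 and 1.71, together with Prkca (1.07), a protein kinase C, and Akap7 (0.98), an anchoring protein of protein kinase A. In the other 3 comparisons 0 of the 26 were called.

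Of 13 tested genes of the dyad and T-tubule, 0 were higher and 3 lower in the sham LV than in the sham RV, against 2.35% of all tested genes lower, and 4 were higher and 0 lower in the interaction, against 3.46% higher. Ryr2, the calcium release channel opposite Cav1.2, was at 22.6 ± 1.43 FPKM (SD, n = 3) in the sham LV, 44.6 ± 10.6 in the sham RV, 43.5 ± 8.70 in the VO LV and 27.0 ± 4.54 in the VO RV. Its sham difference was −0.94 (limma adjusted p = 0.0356) and its interaction 1.61 (adjusted p = 0.0249). Jph2, which ties the T-tubule to the sarcoplasmic reticulum, had −1.51 (adjusted p = 0.0319) and 2.45 (adjusted p = 0.0249), and Ank2, a membrane anchor, −1.21 (adjusted p = 0.0459) and 1.68 (adjusted p = 0.0475). Dmd, dystrophin, was called in the interaction with 0.98 (adjusted p = 0.0410). In the other 3 comparisons 0 of the 13 were called. The calls of both lists were lost in fits without some single libraries. Of the whole table, 0 genes were called between the sham ventricles without sham RV replicate 1. In the interaction 0 were called without sham LV replicate 1 or 2, sham RV replicate 1 or VO LV replicate 2 or 3. Whether these losses come from the library left out or from the smaller group was not tested. Between the sham ventricles, at most 5 genes of the table were called without sham LV replicate 1 or 2, sham RV replicate 2 or VO LV replicate 2, and 4 in the interaction without sham RV replicate 2. With the replicate number as a block 3 genes of the table were called between the sham ventricles and 1 in the interaction, and with that block within treatment 0 in both.

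Across the 12 libraries the levels of Cacnb2 and Cacna2d1 followed each other (Pearson r 0.902 of log2 values), as did Cacna2d1 and Cacna2d2 (0.808), whereas Cacnb2 and Cacna1c gave 0.250. The genes most like Cacnb2 among 11896 protein-coding genes were Dusp27 (r 0.981), Tob2 (0.981) and Palld (0.975), and those most like Cacna1c were Mapt (0.904), Foxred1 (0.879) and Glb1l2 (0.874). These values describe 12 libraries that share group differences, length trends and the atrial transcripts, and carry no test.

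By deposited position, with no build named, the 9 genes lie on 6 chromosomes, and all are annotated as protein coding. Cacna1c is at chromosome 4, 150641066 to 150829913, minus strand, and Cacna2d1 at chromosome 4, 15710417 to 16130848, minus strand. Cacnb2 is at chromosome 17, 81798756 to 82017682, plus strand, and Cacna2d2 at chromosome 8, 116154736 to 116284985, plus strand. Cacna1g (82129506 to 82197848), Cacna1h (14730941 to 14788617) and Cacnb1 (85954138 to 85974651) are on the minus strand of chromosome 10. Cacna1d is at chromosome 16, 6112150 to 6405117, minus strand, and Cacnb3 at chromosome 7, 140315368 to 140324902, plus strand.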

How the data were processed

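RNA of LV and RV free walls was sequenced in 12 libraries, 3 in each of 4 groups taken from the sample labels. Per the submitters' processing notes the authors aligned reads with HISAT2 2.0.5 and counted them with featureCounts 1.5.0-p3. The deposited values are FPKM, made by the authors from read counts per gene. The build and strand setting are not given in the sources used here, and 0 value columns were left unmapped. FPKM times gene length fell on whole reads for 100% of values under 200 reads (tolerance 0.02). After division of FPKM by median-ratio size factors, log2 was taken with a pseudocount of 0.5. Genes whose FPKM averaged 0.5 or more (13910) entered 1 model of the 4 groups in limma 3.58.1 under R 4.3.3 (eBayes with trend, Benjamini-Hochberg). Called means a fold change over 1.3 with an adjusted p under 0.05. An exact permutation test, two-sided, compared single members. The procedure was tested on simulated data. The members and lists were chosen with earlier results of these data known. Named genes are the 9 members, up to 5 called genes with the smallest adjusted p per list and comparison, every other subunit gene, and the 3 most like Cacna1c and Cacnb2. A result on the regulator list is not reported here. Alternatives were other scalings, pseudocounts (0.1 and 1), filters, fits, covariates, voom on the recovered reads and each library left out. Leaving out both libraries with atrial transcripts, and size factors scaled to a geometric mean of 1, were added after the data were seen. The latter was set as the main scaling for a time after the results were known, since it gave 536 in place of 537 genes called between the sham ventricles, a count known from earlier work on these data, and it was then withdrawn to an alternative.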

Additional observations from a re-analysis of the deposited data

Results flagged for a closer look

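The response to VO differed between the LV and the RV, by the interaction term in limma with an adjusted p under 0.05, for 1 member and for 9 of the named genes of its regulators and of the dyad. Cacnb2 was higher in the LV response by 1.67 on the log2 scale. Among the regulators the differences were 1.26 for Adrb1, 1.33 for Adcy5, 1.71 for Prkar2a, 1.07 for Prkca and 0.98 for Akap7. Among the dyad and T-tubule genes they were 1.61 for Ryr2, 2.45 for Jph2, 0.98 for Dmd and 1.68 for Ank2. Without sham LV replicate 1 or 2, sham RV replicate 1 or VO LV replicate 2 or 3, 0 genes were called in this interaction. Groups of 3 libraries are too small for the search for single outlying samples.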

How the results depend on the processing

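Between the sham ventricles the number of members called fell from 1 to 0 with all genes above 0, with the replicate block, with the replicate block within treatment and without both libraries with atrial transcripts, and ran from 0 to 2 when single libraries were left out. For VO LV against sham LV it rose from 0 to 1 with a pseudocount of 0.1, a mean FPKM of at least 1 and voom, and to 2 (Cacnb2 and Cacna2d2) with the atrial marker covariate, and ran from 0 to 1 without single libraries. For the difference between responses it fell from 1 to 0 with all genes above 0, both replicate blocks and both atrial libraries left out, rose to 3 with the atrial covariate, and ran from 0 to 2 without single libraries. The atrial covariate also raised the calls over all tested genes, from 13 to 324 for the LV response and from 583 to 1213 for the difference. The other 2 comparisons stayed at 0 members. The labels do not say whether same-numbered libraries share an animal. The correlations of their deviations from the group means ran from −0.283 to 0.123 over all same-numbered libraries and from 0.0376 to 0.123 between sham LV and sham RV, so pairing is not known and the block was kept as an alternative. With the replicate block the adjusted p of Cacnb2 was 0.0741 between the sham ventricles and 0.0637 for the difference between responses. Size factors scaled to a geometric mean of 1 gave 536 in place of 537 genes between the sham ventricles and moved no member's call.

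Of 1051 member values under alternatives 52 changed sign, 42 of them by less than 1 SE with neither fit calling the gene. The other 10 were for VO RV against sham RV Cacna1g without sham RV replicate 1 (0.16), Cacna1h without VO RV replicate 2 (0.025) and without both atrial libraries (0.089), Cacnb3 without VO RV replicate 3 (−0.18) and Cacna2d2 without VO RV replicate 2 (−0.13). For VO LV against VO RV they were Cacna1h (−0.15) and Cacna2d2 (0.23), each without VO RV replicate 2 and again without both atrial libraries. For the difference between responses it was Cacna1h without both atrial libraries (−0.25). Without single libraries the same values ran for VO RV against sham RV from −0.097 to 0.16 for Cacna1g, −0.32 to 0.025 for Cacna1h, −0.18 to 0.16 for Cacnb3 and −0.13 to 0.28 for Cacna2d2, and for VO LV against VO RV from −0.15 to 0.20 for Cacna1h and −0.12 to 0.23 for Cacna2d2. None of these was called in either fit, and the cause was not tested. Over all settings the genes called ran from 0 to 870 between the sham ventricles (537 reported), 0 to 554 for the LV response (13), 0 to 2 for the RV response (0), 1 to 48 for VO LV against VO RV (1) and 0 to 1213 for the difference between responses (583). Depth limits Cacna1d and Cacnb1, which had 29 to 134 and 24 to 51 reads per library.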
